A study of Mus musculus with 6 samples.

Results

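The array positions described here lie in the defensin cluster of mouse chromosome 8. They are the non-control probes whose mm9 start falls inside chr8:19000000-22900000, a rule that uses position and no measured value. The rule gave 354 of the 174638 non-control probes on the array, beside 7671 probes elsewhere on chromosome 8. Pancreatic tissue of 12-week-old mouse offspring was profiled by methylated DNA immunoprecipitation (MeDIP), in which an antibody to methylated cytosine enriches methylated fragments. On each two-colour tiling array the enriched DNA carried Cy5 and unenriched input DNA of the same group carried Cy3. Offspring of dams with glucose intolerance (GI, called hyperglycemic in the series text) were measured on 3 arrays, and offspring of control dams with normal glucose tolerance (NT) on 3 arrays. The labels name no strain, sex, diet or agent, and leave unsaid whether each array had its own animal, dam or litter, so the p-values measure only the spread between these DNA samples, which may be technical. Whole pancreas holds exocrine, endocrine, duct and blood cells, and a DNA array offers no expression marker by which the labelled tissue could be checked.

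Defensins are small cationic peptides of innate immunity, held in shape by disulfide bonds, that damage the membranes of microbes. Alpha defensins of the mouse (symbols starting Defa, also called cryptdins) are made mainly by Paneth cells of the small intestine. Beta defensins (symbols starting Defb) are made by many epithelia, several of them in the male reproductive tract, as are the related sperm-binding peptides Spag11a and Spag11b. Both families arose by repeated local duplication, so the cluster holds many copies of similar sequence. In mammals cytosine methylation falls almost entirely on the dinucleotide CG, and MeDIP recovers a fragment according to how many methylated CGs it carries.

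The scanner files hold no probe sequences and place probes on mm9, and no mm9 annotation was used, so no probe is paired here with a gene, exon or promoter. The gene content is therefore given from RefSeq on another build, GRCm38.p6, by name and order only. RefSeq lists 66 genes of these families on chromosome 8, with 28 Defa genes, 12 named as Defa pseudogenes, 24 Defb genes and 2 Spag11 genes. In that order Defb40, Defb37, Defb38 and Defb39 come first, Spag11b, Spag11a, Defb14 and Defb4 follow, the Defa array from Defa21 to Defa24 stands in the middle, and Defb1, Defb2, Defb10, Defb15 and Defb13 close it.

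Promoter sequence was matched by symbol for 30 of the 66 genes, 16 Defa and 14 Defb, and the 250 bases upstream of the start were compared position by position without gaps. Among the 120 Defa pairs, 5 were identical letter for letter (Defa21 with Defa22, Defa2 with Defa20, Defa23 with Defa31, Defa36 with Defa37, and Defa42 with Defa43). A further 8 pairs differed at 5 or 7 bases, and 12 of the 16 Defa promoters had a partner above 90% identity. Most Defa pairs were not alike in this ungapped count, with a median identity of 28.0%, beside 25.6% for Defb pairs. None of the 91 Defb pairs reached 90%, the closest being Defb46 and Defb5 at 42.0%. The sequences below show the likeness of a close Defa pair and the scarcity of CG, which is written in capitals. They are RefSeq GRCm38.p6, from base 250 before the start to the base before it, read 5′ to 3′ along the gene. Defa21 stands for Defa21 and Defa22, and Defa2, which also stands for Defa20, differs from it at 5 bases.

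Defa21: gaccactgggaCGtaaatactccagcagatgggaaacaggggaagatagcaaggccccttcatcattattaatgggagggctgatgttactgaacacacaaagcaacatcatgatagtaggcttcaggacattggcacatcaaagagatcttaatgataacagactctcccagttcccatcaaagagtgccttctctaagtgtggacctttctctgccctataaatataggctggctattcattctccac
Defa2: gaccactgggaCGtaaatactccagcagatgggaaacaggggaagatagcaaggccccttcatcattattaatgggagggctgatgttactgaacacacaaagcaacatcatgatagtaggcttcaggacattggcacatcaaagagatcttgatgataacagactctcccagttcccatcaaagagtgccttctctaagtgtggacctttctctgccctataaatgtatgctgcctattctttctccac
Defb15: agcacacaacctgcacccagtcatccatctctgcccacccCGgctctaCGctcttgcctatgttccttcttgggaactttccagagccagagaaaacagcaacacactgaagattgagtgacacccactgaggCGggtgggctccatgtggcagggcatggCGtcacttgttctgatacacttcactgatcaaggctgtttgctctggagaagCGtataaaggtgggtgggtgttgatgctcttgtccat
Defb8: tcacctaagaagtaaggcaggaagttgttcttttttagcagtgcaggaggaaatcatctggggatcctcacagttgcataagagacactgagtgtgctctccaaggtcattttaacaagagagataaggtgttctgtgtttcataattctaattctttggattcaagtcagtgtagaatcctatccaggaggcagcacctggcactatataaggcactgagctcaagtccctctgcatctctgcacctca

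The first pair share their single CG, Defb15 and Defb13 have the most among the matched defensin promoters with 5 each, and Defb8 is one of those with 0. A CG reads the same on both strands. The motif CG was present in 24 of the 30 matched promoters, against 92.13% of all 32851 RefSeq promoter windows of the same length. At most 1 CG was found in 15 of 16 Defa and 9 of 14 Defb promoters, against 18.82% of all windows, whose median was 6. These counts describe letters in a reference sequence, not methylation.

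On the array the 354 probes fell into 3 segments separated by more than 200000 bp, a division made after the positions were seen. Segment 1, chr8:19026030-19495196, held 100 probes. Segment 2, chr8:19728349-20021575, held 32 probes. Segment 3, chr8:22041176-22887436, held 222 probes. Each probe was 45 to 60 bases long, with a median distance of 212 bp between starts, and they formed 53 tiled runs in which neighbours start at most 500 bp apart: 19 runs in segment 1, 4 in segment 2 and 30 in segment 3. Near-identical spacing recurred only in segment 3, where 16 of 30 runs fell into 6 sets with the same number of probes at offsets equal within 10 bp.

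All values are log2 of the processed signal, with each array's median over its non-control probes subtracted, so 0 is the array's typical position and a ratio below 0 means less MeDIP than input signal relative to it. Ratio, input and MeDIP were each centred on their own median, so the 2 channel differences need not add up to the ratio difference. Over all probes the mean ratio was 0.11 higher in GI, with input 0.03 and MeDIP 0.02 higher. The 3 GI arrays shared 1 scan, while the NT arrays came from 2 others, so scan and group cannot be told apart. Input signal was well above background for 71.0% to 78.7% of all probes on the GI arrays and 85.5% to 92.4% on the NT arrays. The lowest input signal so classed was 224 to 291 units on GI arrays and 85.6 to 138 on NT arrays. Of the members, 228 of 354 (64.4%) had input well above background on every array and entered the tests, against 68.3% of other chromosome 8 probes. All 126 members that failed were dim on at least 1 GI array and 45 also on an NT array. Values over all 354 and over the 228 tested probes are therefore given side by side. No member spot was saturated, and 25 of 2124 member spots (1.18%) were marked as outliers and left out.

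Over the whole defensin cluster the median ratio of MeDIP to input was low in both groups. The median ratio over the 354 probes was -0.82, -0.56 and -0.67 on GI arrays 1, 2 and 3, and -1.34, -0.99 and -1.08 on NT arrays 1, 2 and 3. Elsewhere on chromosome 8 the medians were 0.18, 0.15 and 0.12, and 0.13, 0.09 and 0.08. Every array thus had a lower defensin median than its own chromosome 8 median, by 1.0, 0.70 and 0.78 in GI and by 1.47, 1.07 and 1.16 in NT. The gap to chromosome 8 was narrower in every GI array than in every NT array, with a group difference of 0.41. Over the 228 tested probes the gaps were -1.20, -0.69 and -0.89 in GI and -1.42, -0.87 and -0.96 in NT, the groups overlapped and the difference was 0.16. Without NT array 1 that difference was -0.01 and without GI array 2 it was 0.04. By means over all 354 probes the gaps to chromosome 8 also overlapped, with a difference of 0.30.

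**Figure D1:**
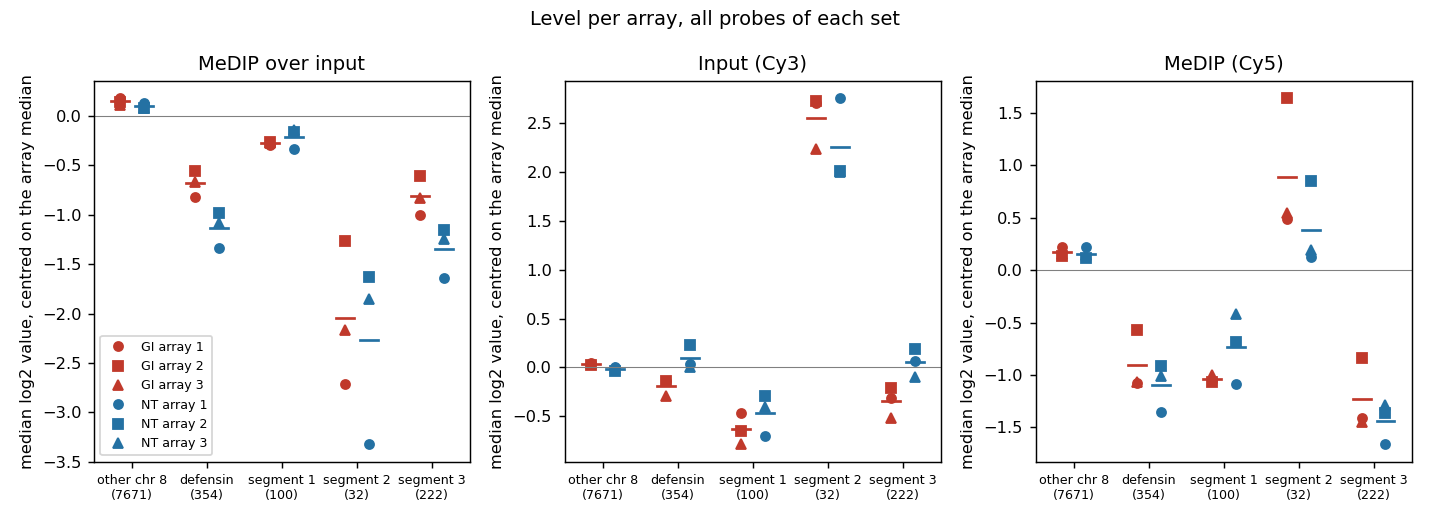
Median log2 value per array for other chromosome 8 probes, the 354 defensin probes and their 3 segments, in the ratio, input and MeDIP panels; red symbols are GI arrays, blue symbols NT arrays, and short bars the group means of 3 arrays. Segment 3 ratios sit between -1.0 and -0.61 on GI arrays and between -1.64 and -1.16 on NT arrays, while its MeDIP medians overlap.

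The channels differed in which groups separated. Median input over the 354 probes was -0.14, -0.14 and -0.29 in GI and 0.04, 0.23 and 0.01 in NT, lower in every GI array than in every NT array. Median MeDIP was -1.08, -0.57 and -1.07 in GI and -1.35, -0.91 and -1.01 in NT, and the groups overlapped. The group difference was -0.28 in input and 0.18 in MeDIP. Over the 228 tested probes the input medians overlapped, with a difference of -0.20.

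The segments were not alike. Segment 1 was nearest to the rest of the chromosome, with mean ratios of -0.50, -0.39 and -0.38 in GI and -0.50, -0.52 and -0.48 in NT. Its groups overlapped, with a difference of 0.07, and 38 of its 100 probes had a mean ratio above 0, against 53.7% of other chromosome 8 probes. By median over its 54 tested probes the ratio was lower in GI without overlap, at -0.18, -0.17 and -0.20 against -0.08, -0.10 and -0.01 in NT, so mean and median differed in sign there. Segment 2 had the lowest ratios and the brightest input of the cluster. Its mean ratio was -2.55, -1.16 and -2.15 in GI and -3.07, -1.71 and -2.33 in NT, and its mean input was 2.98, 2.91 and 2.49 in GI and 3.06, 2.51 and 2.42 in NT. Mean MeDIP of segment 2 was 0.34, 1.60 and 0.29 in GI and 0.10, 0.74 and 0.09 in NT, above the array's typical value on all 6 arrays, unlike the means of segments 1 and 3. All 3 quantities overlapped between groups. GI array 2 was the highest of all 6 arrays in ratio in each of the 4 runs, and without it the ratio difference of segment 2 fell from 0.42 to 0.02; without NT array 1 it was 0.07.

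Median input in segment 2 was also high, at 2.70, 2.73 and 2.23 in GI and 2.76, 2.01 and 2.0 in NT. Some of its probes stood far above that. Mean input exceeded 4 at 7 of its 32 probes (21.9%), against 1.94% of other chromosome 8 probes, at 2 probes of segment 1 and at none of segment 3. The brightest was Ch_220697_0150275 at chr8:19892968-19893012, with input of 7.02, 7.12 and 6.89 in GI and 5.64, 6.38 and 6.02 in NT. Input there was higher in all GI arrays than in all NT arrays, by 0.99 with a standard error of 0.25 (limma, Benjamini-Hochberg adjusted p = 0.0367). The second, Ch_220697_0150291 at chr8:20020236-20020280, read 6.95 and 6.73 on GI arrays 1 and 3, its spot on GI array 2 being an outlier, and 5.79, 6.54 and 6.16 in NT. At the third, Ch_220697_0150265 at chr8:19728349-19728406, input was 6.59, 6.16 and 6.39 in GI and 6.16, 6.07 and 5.63 in NT, while the ratio lay between -6.33 and -3.69 on all 6 arrays. These 3 probes combined very bright input with a ratio far below 0 in both groups.

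Of the 3 runs with the lowest ratio levels among the 38 tested, 2 were also in segment 2. The run at chr8:19958330-19959818 had ratios of -3.26, -1.29 and -2.76 in GI and -4.16, -2.32 and -3.10 in NT, and that at chr8:19728349-19729842 had -2.92, -1.38 and -2.77 in GI and -3.44, -2.24 and -2.48 in NT. The groups overlapped in both. The third, chr8:22388266-22389851 in segment 3, had -1.79, -0.80 and -1.79 in GI and -2.46, -1.85 and -2.16 in NT, without overlap. The highest levels stood in 3 runs of 3 tested probes, chr8:22084231-22084695 (mean ratio 0.53), chr8:19292585-19293320 (0.47) and chr8:19114632-19115292 (0.24).

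Of the 3 segments, segment 3 was the one whose groups did not overlap in mean ratio over all its probes. Its mean ratio over all 222 probes was -1.15, -0.60 and -0.99 in GI and -1.76, -1.33 and -1.34 in NT, higher in every GI array than in every NT array by 0.56. Lack of overlap was not particular to it. Mean ratios over other chromosome 8 probes and over all probes of the array were also higher in every GI array, by 0.11 in each set. For segment 3, leaving out 1 array at a time gave differences from 0.41 (without GI array 2) to 0.68 (without GI array 1). The deposited value table gave -0.67, -0.42 and -0.73 in GI and -0.84, -0.95 and -0.78 in NT for segment 3, a difference of 0.24 on its own scale, also without overlap. In that table, too, other chromosome 8 probes and all probes of the array were higher in GI without overlap, by 0.01 in each set. Over the 142 tested probes of segment 3 the ratios were -1.21, -0.59 and -1.09 in GI and -1.51, -1.25 and -1.17 in NT. The groups overlapped, GI array 1 lying below NT array 3, and the difference of 0.35 was 0.16 without GI array 2.

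The input channel of segment 3 read lower in GI. Mean input was -0.25, -0.23 and -0.57 in GI and -0.03, 0.09 and -0.08 in NT, a difference of -0.34 without overlap. Mean MeDIP was -1.49, -0.98 and -1.62 in GI and -1.68, -1.30 and -1.41 in NT, a difference of 0.10 with overlap, and -0.09 without GI array 2. Over the 142 tested probes the mean input difference shrank to -0.14 with overlap. By median over those 142 probes MeDIP was -0.35, 0.08 and -0.42 in GI and -0.63, -0.47 and -0.62 in NT, without overlap and 0.34 higher in GI, although the means overlapped. The 80 probes that failed the filter had the larger ratio differences. At mean ratios between -2 and -1 their median difference was 1.13 in ratio and -0.79 in input, against 0.29 and -0.01 at the tested probes. All 80 were dim on a GI array and 22 also on an NT array, so failing the filter itself selected for low GI input. At failed probes of the same ratios elsewhere on chromosome 8 the median differences were 0.26 in ratio and -0.20 in input. The part of dim input and of the scans in the ratio difference was not tested.

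For scale, the rest of the array was cut into 1734 consecutive stretches of 100 probes. A ratio difference above the 0.56 of segment 3 occurred in 12 of them, and an input difference below its -0.34 in 13. Those segment 3 values are over all its 222 probes, dim ones included, so its size differs from that of the stretches. The segments were chosen after seeing the data, and no such comparison was made over tested probes only. The 76 stretches on chromosome 8 outside the cluster ranged from -0.04 to 0.24 in ratio difference and from -0.13 to 0.18 in input difference, so none reached segment 3 in either.

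**Figure D2:**
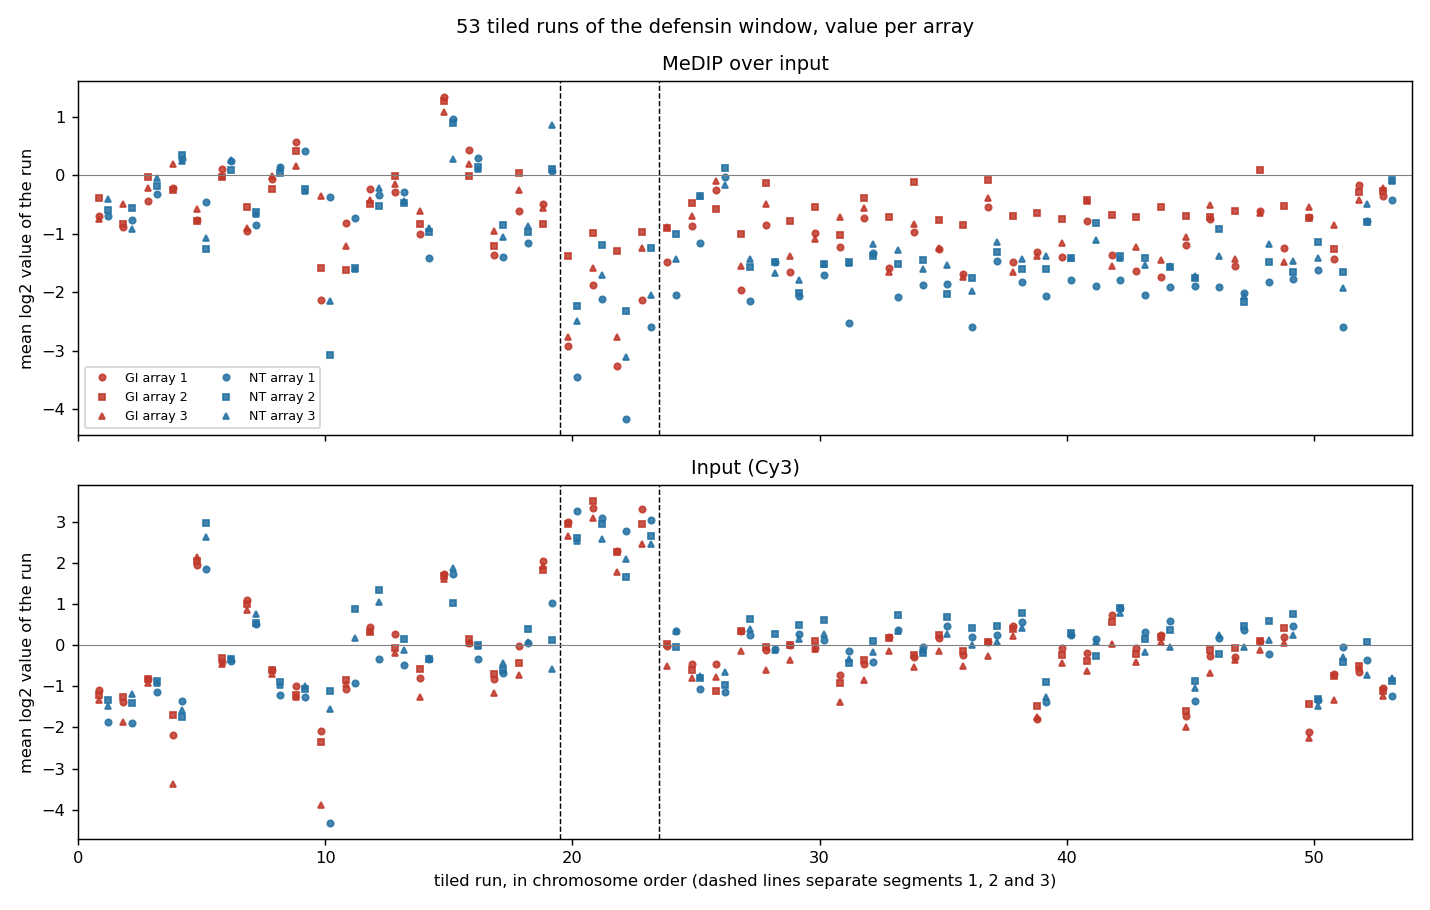
Mean log2 MeDIP over input (top) and mean log2 input (bottom) of the 53 tiled runs in chromosome order; each symbol is 1 array, red for GI and blue for NT, and dashed lines separate the segments. In segment 3 the red symbols lie above the blue ones in 19 of 30 runs in the top panel and below them in 13 of 30 in the bottom panel.

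Single probes did not pass the test in the ratio. With limma and Benjamini-Hochberg adjustment over 115649 probes, 0 of 228 members reached an adjusted p of 0.05 (lowest 0.105), beside 0.000865% of all probes, and 59 members had an unadjusted p under 0.05. Of these, 45 (19.7%) were higher in GI, where 10.3% of all probes were. Groups did not overlap, with GI higher, at 42 members (18.4%), against 11.7% of all probes. The share was 26.8% (38 of 142) in segment 3, 12.5% (4 of 32) in segment 2 and 5.56% (3 of 54) in segment 1 at the same unadjusted level. The median difference over the tested members was 0.20, against 0.13 over all tested probes.

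Runs averaged over at least 3 tested probes gave the same direction. With limma, 0 of 38 member runs passed after adjustment over 18562 runs (lowest adjusted p 0.168), as did 0% of all runs. At an unadjusted p under 0.05, 12 of 38 (31.6%) were higher in GI, against 13.3% of all runs, and 11 of the 12 lay in segment 3. In 33 of the 38 (86.8%) the difference was above 0, against 70.8% of all runs. The median difference was 0.34, against 0.12 over all runs. This count depended on the processing. With normexp background correction 12 of 38 member runs passed in limma (31.6%, beside 8.71% of all runs), with the deposited values 11 (28.9%, beside 8.44%) and with replicate number as a block 11 (28.9%, beside 4.27%). All of these were higher in GI, 8 runs passed under all 3 settings, and 10, 10 and 9 respectively were in segment 3. With scan as a random block limma called 0 member runs and 0 of all runs. At an unadjusted p under 0.05 that fit gave 10 member runs, and the share of all runs was not counted.

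The lowest p among runs that were higher in GI belonged to 3 runs of segment 3. At chr8:22274078-22274746 the ratio was -0.56, -0.15 and -0.41 in GI and -1.16, -1.15 and -1.11 in NT. The groups were well apart, the difference was 0.77 with a standard error of 0.14 (limma adjusted p = 0.168), and input differed by only 0.01 while MeDIP was 0.65 higher. At chr8:22223452-22224320 the ratio was -0.82, -0.54 and -0.99 in GI and -1.48, -1.62 and -1.42 in NT, again without overlap. Its difference was 0.73, with -0.37 in input and 0.24 in MeDIP, each channel being centred separately. The ratio difference shrank to 0.56 with each MeDIP signal raised to its array's lowest value well above background. At chr8:22426855-22427526 the ratio was -0.31, -0.12 and -0.39 in GI and -0.93, -0.81 and -0.82 in NT, a difference of 0.58 with -0.09 in input and 0.37 in MeDIP.

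Lower in GI were 5 of the 38 runs (13.2%), against 29.2% of all runs. The lowest p among them was at chr8:19114632-19115292 in segment 1, with ratios of 0.04, 0.16 and -0.04 in GI and 0.46, 0.37 and 0.46 in NT. The difference was -0.38 with a standard error of 0.12 (limma adjusted p = 0.240), without overlap, and MeDIP was 0.53 lower in GI while input differed by -0.03. The next, chr8:22775323-22776219 and chr8:19027139-19027812, differed by -0.23 and -0.09, with overlapping groups and limma adjusted p = 0.686 and 0.849.

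Over all 53 tiled runs, dim probes included, 41 had a higher mean ratio in GI. Of the 47 runs with at least 3 probes, 38 (80.9%) were higher in GI, against 68.6% of such runs elsewhere on the array. Of the same 47 runs, 21 (44.7%) had GI above NT without overlap, against 17.5% of such runs over the whole array. In 16 of them (34.0%) input was lower in GI without overlap, against 10.5%. Segment 3 held most of both, with 27 of 30 runs higher in ratio, 19 of them without overlap, and 28 of 30 lower in input, 13 of them without overlap. MeDIP was higher in 20 of the 30 runs, in 4 of them without overlap. Over all tested probes of the array, taken singly, input was lower in GI at 47.5%, and without overlap at 12.7%. MeDIP was higher at 52.7% of them, and without overlap at 17.6%. These shares are of single probes that passed the input filter, while the runs are means with dim probes included, so the measures are not alike. GI array 2 was the highest of the GI arrays in ratio in 22 of the 30 runs, and NT array 1 was the lowest of all 6 arrays in 24. Without GI array 2 the mean ratio was still higher in GI in 25 of 30 runs, and without NT array 1 in 26.

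**Figure D3:**
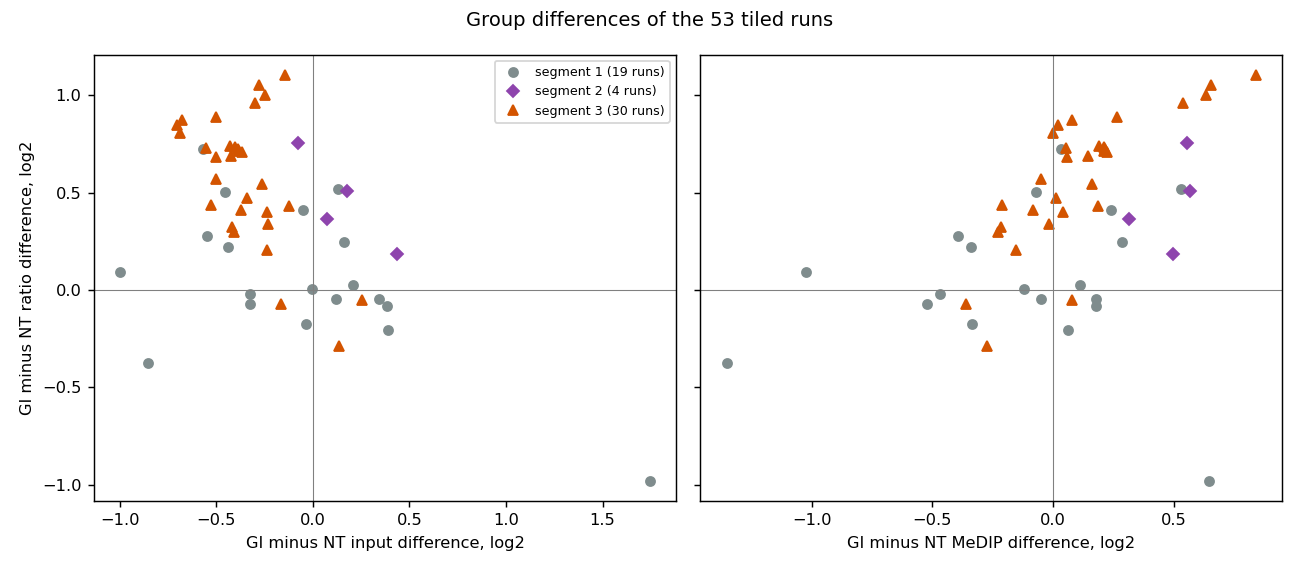
GI minus NT difference in log2 ratio of the 53 tiled runs (vertical) against the difference in input (left) and in MeDIP (right); symbols mark the 3 segments. Most segment 3 runs lie left of 0 in the left panel, 28 of 30, and on both sides of 0 in the right panel, with 20 of 30 to the right.

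Runs of the same spacing let like positions be compared. The largest set had 5 runs of 7 probes in segment 3, starting at 22193817, 22330350, 22426176, 22765327 and 22844070. Their mean ratio differences were 1.06, 1.0, 0.96, 1.11 and 0.40, the first 4 being the largest of all 30 runs, and all 5 were free of overlap. The ratio was higher in GI at 33 of the 35 probes, MeDIP was higher at 27 and input was lower at 23. The shares over all tested probes of the array were 62.8%, 52.7% and 47.5% in that order. Those shares are over probes that passed the input filter, while the 35 include probes that failed it. Failing it selected for low GI input in this segment, so the sets are not alike. Whether the probes at like offsets share their sequence was not tested, so the 5 runs are not 5 independent observations.

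The difference was not even along these runs. The 3 first positions, of which only 1 of 15 probes passed the input filter, had mean differences of 1.29, 1.71 and 1.0, the third with input 1.43 lower in GI. The fourth to sixth, where 14 of 15 passed, had 0.35, 0.64 and 0.30. The last position, 1284 to 1291 bp from the first, passed the filter in all 5 runs with MeDIP well above background on all 6 arrays. Its values were chosen for display after they had been seen.

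At that last position the ratio in the first run, chr8:22195105-22195164, was 0.11, 0.15 and 0.02 in GI and -0.88, -0.63 and -0.80 in NT. In the second run, chr8:22331638-22331697, it was 0.27, 0.30 and -0.24 in GI and -1.21, -0.82 and -1.35 in NT. In the third, chr8:22427467-22427526, it was -0.17, -0.28 and 0.04 in GI and -1.13, -0.99 and -1.11 in NT. In all 3 the GI arrays lay near the array's typical ratio and the NT arrays clearly below it. The fourth run, chr8:22766618-22766677, read -0.04, -0.08 and 0.04 in GI and -1.20, -0.77 and -1.25 in NT. The fifth, chr8:22845354-22845413, read 0.88, 0.21 and 0.41 in GI and 0.09, -0.21 and -0.47 in NT. None of the 5 overlapped between groups, the differences were 0.87, 1.23, 0.94, 1.05 and 0.70, and limma adjusted p ranged from 0.130 to 0.257. Averaged over the 5 probes the ratio was 0.96 higher in GI, MeDIP 0.74 higher and input 0.09 lower. The larger channel difference at this position, chosen after its values were seen, was thus in MeDIP. Each channel was centred separately, so the channel differences need not add up to the ratio difference.

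**Figure D4:**
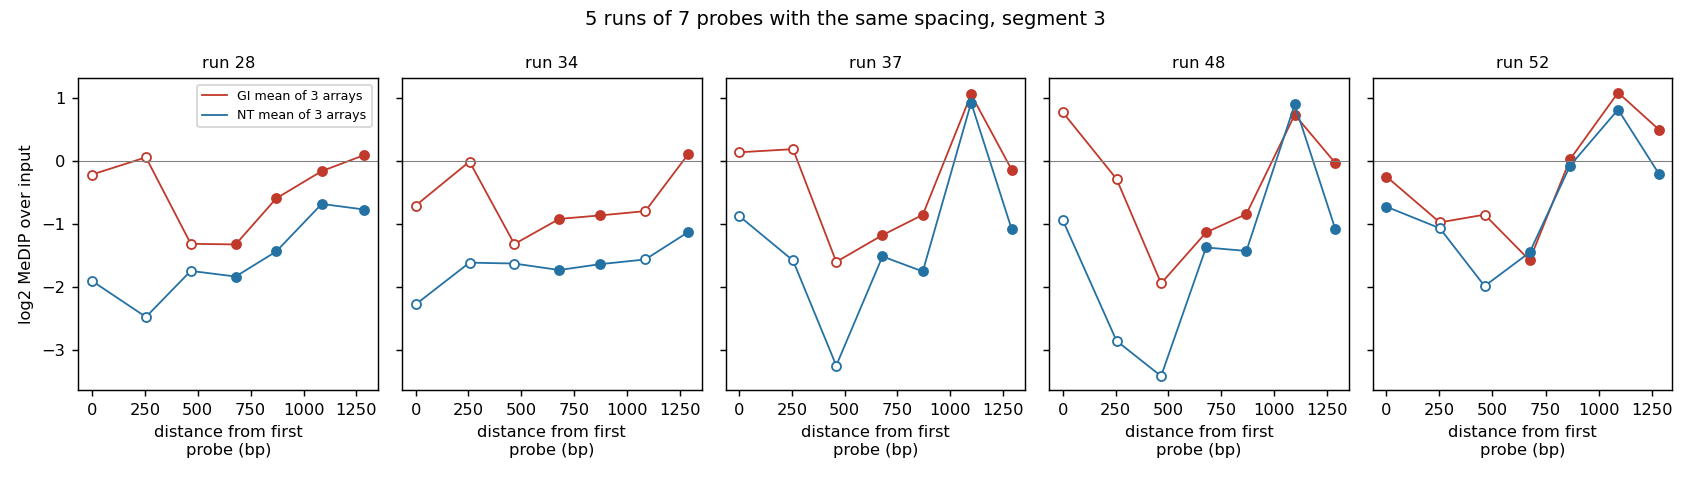
Group mean log2 MeDIP over input (3 arrays each) along 5 runs of segment 3 with the same probe spacing, against distance from the first probe in bp; filled symbols passed the input filter and open symbols did not. At the last probe GI exceeds NT by 0.70 to 1.23 in all 5 runs.

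The other sets of like spacing also showed higher ratios in GI within narrow ranges. The 3 runs of 5 probes starting at 22454575, 22692849 and 22804834 differed by 0.57 to 0.81, with input lower by 0.50 to 0.69 and MeDIP differing by -0.05 to 0.05. The pair at 22235393 and 22813737 differed by 0.85 and 0.88, with input lower in GI by differences from -0.70 to -0.67. The pair at 22163947 and 22300673 differed by only 0.21 and 0.30, and its groups overlapped. The input and MeDIP differences thus varied from set to set.

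Among single probes, the lowest p in the ratio fit with GI higher was Ch_220697_0150455 at chr8:22692849-22692908. Its ratio was -0.44, -0.63 and -0.90 in GI and -2.05, -2.23 and -2.01 in NT, a difference of 1.44 with a standard error of 0.22 (limma adjusted p = 0.105). MeDIP there was well above background on 3 GI arrays and on 1 NT array. The next was Ch_220697_0150345 at chr8:22223667-22223712, with -1.38, -0.90 and -1.77 in GI and -3.12, -2.88 and -3.26 in NT. In NT its MeDIP signal was on no array well above background, and the difference of 1.74 became 0.72 with MeDIP raised to each array's lowest value well above background. For Ch_220697_0150390 at chr8:22388707-22388765 the ratio was -1.31, -0.77 and -1.16 in GI and -3.94, -2.54 and -4.50 in NT, and the difference of 2.58 likewise became 1.83, with MeDIP well above background on 1 GI and no NT array and input 1.42 lower in GI.

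In the other direction, Ch_220697_0150263 at chr8:19494938-19494987, the end of segment 1, read -0.50, -1.25 and -0.74 in GI and -0.24, 0.10 and 0.87 in NT (difference -1.08, limma adjusted p = 0.204). Ch_220697_0150325 at chr8:22164841-22164887 read -1.55, -1.54 and -2.16 in GI and -1.27, -0.60 and 0.20 in NT. Ch_220697_0150487 at chr8:22775958-22776006 read -2.22, -1.64 and -1.78 in GI and -1.36, -0.87 and 0.10 in NT. The groups did not overlap at any of the 3, and NT array 3 was the highest array at each.

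Tested by itself, the input channel gave calls at about the rate of the whole array. limma called 26 of 228 members at an adjusted p under 0.05 (11.4%), 18 of them lower in GI, against 9.93% of all probes. At an unadjusted p under 0.05, 36 members (15.8%) were lower in GI, against 13.2% of all probes. Leaving out any 1 GI array, or NT array 3, brought the 26 to 0. Over the whole array those fits called 0 probes without a GI array and 31 without NT array 3. Leaving out NT array 1 raised the 26 to 61 (27.1%, beside 31.4% of all probes). With scan as a random block limma called 0 members and 0 of all probes. At an unadjusted p under 0.05 that fit gave 23 members, and the share of all probes was not counted. The probe with the lowest p, Ch_220697_0150388 at chr8:22388266-22388322, had input of 0.97, 0.84 and 0.15 in GI and 2.58, 2.92 and 2.30 in NT, a difference of -1.95 (limma adjusted p = 0.0150). Input at Ch_220697_0150255, chr8:19447249-19447308, was 0.74, 0.11 and 0.28 in GI and 2.55, 1.86 and 2.09 in NT, a difference of -1.79 (limma adjusted p = 0.0155). It was opposite at Ch_220697_0150209, chr8:19193328-19193383, where input was 1.20, 1.16 and 1.20 in GI and -0.16, -0.22 and -0.34 in NT, a difference of 1.43 (limma adjusted p = 0.0150). Input DNA is not enriched for methylation, and differences of this size in it stood on both sides of 0 within the cluster.

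The MeDIP channel by itself gave calls in both directions. limma called 22 of 228 members (9.65%), 9 higher and 13 lower in GI, against 12.1% of all probes. At an unadjusted p under 0.05, 39 (17.1%) were higher in GI, against 16.2% of all probes, a share near the background. The 22 calls fell to 0 without any 1 GI array or without NT array 3, and those fits also called 0 of all probes. They fell to 7 without NT array 2 (3.07%, beside 1.68% of all probes) and rose to 70 without NT array 1 (31.1%, beside 34.3% of all probes). With scan as a random block limma called 0 members and 0 of all probes. At an unadjusted p under 0.05 that fit gave 18 members, and the share of all probes was not counted.

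Within groups the arrays ranked the tested members alike. Across the 228 probes the ratios of 2 arrays of one group correlated with r between 0.88 and 0.96, and those of a GI and an NT array with r between 0.70 and 0.91. Across the 5239 other tested probes of chromosome 8 the ranges were 0.85 to 0.94 and 0.77 to 0.93. These are correlations across probes, which are not independent, and the 3 GI arrays share a scan, as do NT arrays 2 and 3.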

How the data were processed

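Probe intensities are the processed Cy5 and Cy3 signals that the authors deposited, made with Agilent Feature Extraction 11.0.1.1 on an mm9 design, per the file headers. The deposited log10 ratio matched the log10 of those signals within 0.01 at 96.7% of probes and served as a check. The deposited value table is taken as log2; it correlated best with its own array for 6 of 6 arrays (r 0.81 to 0.89) with medians of 0.03 to 0.04 and slopes of 0.38 to 0.55 on the processed log2 ratio, and its scale and centring steps stay unknown.

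From the processed signals, log2 MeDIP over input, log2 input and log2 MeDIP were computed, and each array's median over its 174638 non-control probes was subtracted, with no loess step. Spots marked as outliers were left out. Probes with input well above background on all 6 arrays, 115649 in number, were fitted with limma 3.58.1 in R 4.3.3 (lmFit, eBayes) and adjusted by Benjamini-Hochberg over all of them. Runs are means of 3 or more such probes with starts at most 500 bp apart, 18562 in all. Tiled runs and segments include dim probes and are descriptions. The fit was tested on simulated data. Array number, 3 per group, limits the precision.

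Runs were named by p (3 lowest for GI higher and 3 for GI lower) and by level (3 highest and 3 lowest); probes were named by p in the ratio (3 each way), by p in input (3) and by brightest input (3). The members and these lists were chosen with earlier results of these data known. Alternatives were normexp correction (offset 50) and unsubtracted signals, both on median signals, loess, quantile scaling, centring on chromosome 8, other filters, the deposited table, trended variance, scan as a random block, replicate number as a block, a 1000 bp gap, and leaving out each array. Deviations of same-numbered arrays correlated with r of 0.49, 0.45 and 0.02, so arrays were not treated as pairs.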

Additional observations from a re-analysis of the deposited data

How the results depend on the processing

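The 9 summaries over the tested members, and the mean ratio and input differences of segment 3, were recomputed under the alternatives that applied to each. Levels and mean differences were not recomputed for the blocks, trended variance or the 1000 bp gap. The input and MeDIP summaries were not recomputed for loess, quantile scaling or the deposited table. Ratio calls among tested members, 0 in the report, were 19 with normexp correction (8.33%, beside 5.30% of all probes), 2 without background subtraction (0.877%, beside 0.733%), 6 with quantile scaling (2.63%, beside 1.48%), 18 with the deposited table (7.89%, beside 5.50%) and 1 with trended robust variance (0.439%, beside 0.646%). They ranged from 0 to 6 over the leave-one-out fits, 6 being without NT array 1 (2.67%, beside 3.32%). With the replicate block, ratio calls were 24 for probes (23 higher in GI; 10.5%, beside 3.53% of all probes) and 11 for runs; the labels do not say that the numbers pair arrays, and the check of pairing failed for number 3. Run calls were 12 with normexp and 11 with the deposited table, and 0 in all leave-one-out fits, where 0% of all runs were called. With scan as a random block the 26 input calls and 22 MeDIP calls became 0 and 0, as did the calls over all probes. Leaving out 1 array gave 0 to 61 and 0 to 70, the highest being without NT array 1, where 31.4% and 34.3% of all probes were called. Normexp moved the members' MeDIP level relative to chromosome 8 from -1.0 to -0.66 and the ratio level from -1.01 to -0.62. Without the filter, the input difference of segment 3 moved from -0.14 to -0.34 and the ratio difference from 0.35 to 0.56. The run at 22775323 turned from -0.23 to 0.55 without the filter, and that at 19027139, -0.09 with all arrays, ranged from -0.30 (without NT array 1) to 0.13 (without NT array 3). The 3 named input probes kept their direction in all fits run, and lost the adjusted threshold in 15 of 44 of them. The cause of these changes was not tested. The segments, the values over all members, the family of like spacing and the leave-one-out values by segment were chosen after seeing the data.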
